A study of Homo sapiens with 74 samples.

Results

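JAK-STAT signalling genes and the PIM kinases were followed in the messenger RNA of 2 human leukaemia cell lines, K562 and HEL. Controls were compared with cells depleted of DOT1L or, in K562 only, of ENL. The set was chosen by gene symbol, with earlier results of these data known, and held 10 of the 28131 genes listed in the count tables. It comprised the kinase gene JAK2, the transcription factor genes STAT5A, STAT5B and STAT3, the kinase genes PIM1 and PIM2, and the feedback inhibitor genes CISH, SOCS1, SOCS2 and SOCS3. All 10 had enough counts to be tested in every comparison. DOT1L methylates lysine 79 of histone H3, and ENL (gene symbol MLLT1) is a reader of acetylated histones in the same complex.

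K562 is an erythroleukaemia line that carries the BCR-ABL1 fusion kinase, and HEL is an erythroleukaemia line with an activated mutant JAK2. The K562 groups were a wild type control, a DOT1L-/- knockout (KO) and an ENL-/- KO, and the HEL groups were a control and a DOT1L knockdown (KD). K562 had 2 distinct control libraries, 3 DOT1L KO libraries and 3 ENL KO libraries, because the third control column repeated the second in every gene and was counted with it as 1 library. HEL had 2 control and 2 KD libraries. Whether a knockout line was 1 clone, how HEL was depleted and for how long, and whether replicates were separate cultures is not given in the sources used here. The p-values below therefore rest on the spread between these libraries, which may be technical. The test draws the spread of each gene partly from all genes of the fit. A small p-value is thus not a measure of that gene's own spread alone.

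In JAK-STAT signalling a cytokine receptor activates a bound JAK kinase, which phosphorylates STAT proteins so that they pair, enter the nucleus and bind target genes. Among those targets are the PIM genes, which encode constitutively active survival kinases, and CISH and the SOCS genes, whose products bind receptors or JAKs and damp the signal. In erythroid cells JAK2 and STAT5 carry the erythropoietin signal. BCR-ABL1 activates STAT5 without a cytokine, and an activated JAK2 does so without the receptor ligand.

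STAT proteins recognise the letters TTCNNNGAA, which read the same on both strands. The promoter of CISH is printed here because, of the member promoters in the RefSeq table (GRCh38.p14), only that of CISH held this motif. The table gives 250 bases before and 50 after each start. It matched 9 members with 15 entries, and CISH was the single entry with a match. Across all 35116 entries of that length 7.66% held at least 1 match and 7 entries (0.0199%) held 4 or more. The CISH entry held 4, beginning 241, 230, 129 and 112 bases before the start. The stretch at chr3:50611865-50612024 (GRCh38, minus strand) follows, with the 4 matches in capitals.
CISH: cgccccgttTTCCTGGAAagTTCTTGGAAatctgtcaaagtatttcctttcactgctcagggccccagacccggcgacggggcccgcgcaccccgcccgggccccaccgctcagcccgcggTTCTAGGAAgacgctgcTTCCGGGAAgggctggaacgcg
The matches lie as a distal and a proximal pair, and each differs from the others in its central bases. A match is a description of the letters and no measurement of binding.

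Each K562 library held 15404944 to 29236703 counts and each HEL library 12151495 to 12811688. The targeted genes were lower in the libraries labelled as depleted. DOT1L was at 182 ± 5.15 CPM (the count scaled to a common library total; SD, n = 3) in the K562 KO against 263 ± 9.84 (n = 2), and at 29.6 ± 0.641 in the HEL KD against 92.4 ± 7.12 (n = 2 each). MLLT1 was at 154 ± 1.92 CPM in the ENL KO (n = 3) against 216 ± 3.56 in the control (n = 2). DOT1L shares 661 exonic bases with PLEKHJ1 on the other strand. A knockout need not remove the transcript, and the position of the deletions is not given in the sources used here. All 6 erythroid markers examined were at 1 CPM or more in every group. Their summed level was 4994 to 5387 CPM in the K562 control, 6081 to 6531 with DOT1L KO and 5321 to 5436 with ENL KO, and it went from 4772 to 4868 in the HEL control to 6819 to 7494 in the KD. The 4 megakaryocytic markers summed to 7.30 to 9.93 CPM in the K562 control, where GP9 and PF4 had no count, and to 33.3 to 35.0 and 29.4 to 36.9 with DOT1L KO and with ENL KO. In HEL they summed to 2386 to 2438 CPM in the control and 1780 to 1800 in the KD. The 4 monocyte and granulocyte markers summed to 292 to 323 CPM in the DOT1L KO against 33.7 to 36.5 in the control. They summed to 19.8 to 20.7 in the ENL KO and 44.6 to 51.0 over both HEL groups. Only 1 of these 4 reached 1 CPM in each group, so each sum came largely from 1 gene. The 3 fibroblast markers summed to 129 to 135 CPM in the DOT1L KO against 12.1 to 13.7 in the control. They summed to 13.8 to 15.3 in the ENL KO and to at most 0.159 in HEL. Of the 3 T cell markers, which summed to 51.5 to 53.1 CPM in the K562 control, 15.9 to 20.3 in the DOT1L KO, 61.5 to 72.3 in the ENL KO and 8.49 to 11.1 over both HEL groups, 1 reached 1 CPM in each group. It was not the same gene throughout. CD2 had no count in the ENL KO, and CD3D and CD3E had none in the HEL control. The 3 B cell markers summed to at most 2.51 CPM, and MS4A1 had no count in any group. These markers moved with the groups, and their part in the results below was not tested. A lane is named for the K562 controls and the DOT1L KO but not for the ENL KO, so batch and ENL loss cannot be told apart.

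In control cells the members stood in a different order in each line. Levels of different genes are compared here per kilobase of exon (CPM per kb). In K562 PIM1 was highest at 294 ± 2.84 CPM per kb and STAT5A second at 194 ± 3.00 (SD, n = 2). CISH, PIM2, STAT3, STAT5B, SOCS2 and SOCS1 followed from 83.3 down to 25.7, then SOCS3, and JAK2 was lowest at 11.5 ± 0.578. In HEL PIM1 was again highest at 672 ± 0.527 CPM per kb, but PIM2 came second at 207 ± 0.609 and then JAK2 at 164 ± 1.04 (SD, n = 2). STAT3, STAT5A, STAT5B, SOCS3, CISH and SOCS2 followed from 108 down to 10.7, and SOCS1 was lowest at 2.19 ± 0.241. The libraries of neighbouring genes did not overlap in either control group.

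A joint fit of HEL and K562 libraries gave the difference between the control groups. JAK2 was 15.0-fold higher in HEL (log2 difference 3.90, SE 0.060, adjusted p = 9.09e-23 by edgeR's quasi-likelihood test, here and below with Benjamini-Hochberg adjustment over all genes). SOCS1 was 11.1-fold lower in HEL (log2 difference -3.48, SE 0.17, edgeR adjusted p = 2.56e-14), where it had only 31 and 36 counts per control library. PIM1, PIM2, SOCS3, STAT3 and STAT5B were higher in HEL by log2 differences of 1.26, 1.49, 1.85, 0.70 and 0.57. STAT5A, CISH and SOCS2 were lower in HEL by log2 differences of -0.98, -0.96 and -1.91. All 10 members passed an adjusted p of 0.05, 6 of them higher and 4 lower, and so did 85.6% of all genes tested, 41.3% as higher and 44.2% as lower. The control libraries of the lines lay apart, without overlap, in all 10 members and in 92.7% of all genes. Cell line goes together with read against fragment counting, growth medium and separate tables here, and these cannot be told apart.

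**Figure D1:**
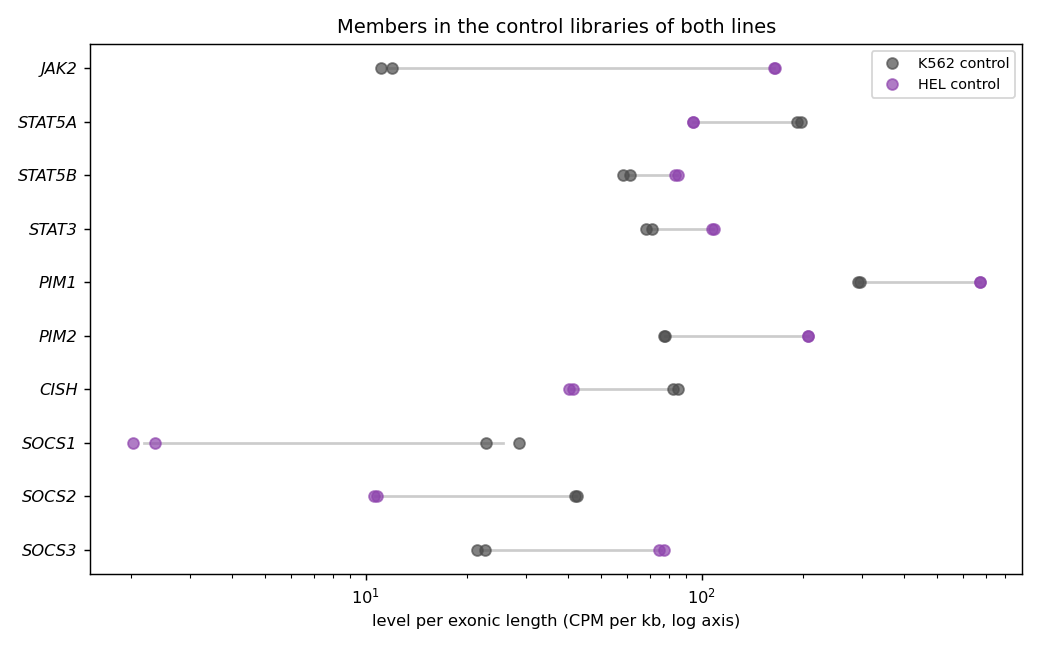
Level per kilobase of exon (CPM per kb, log axis) of each member in the 2 K562 control libraries (grey) and the 2 HEL control libraries (purple), 1 point per library. JAK2 and SOCS1 show the widest separation of the lines, in opposite directions.

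JAK2, which encodes the receptor-bound tyrosine kinase, lies at chromosome 9, 4985086 to 5128183 (GRCh38 as the tables list it, plus strand). In HEL it stood at 925 and 934 CPM in the control libraries and at 606 and 589 after KD. The KD libraries lay below both controls, and JAK2 fell 1.56-fold (log2 change -0.64, SE 0.028, edgeR adjusted p = 8.67e-26). K562 had 62.9 and 67.5 CPM in the control libraries, 60.8, 66.9 and 63.9 with DOT1L KO and 48.8, 51.9 and 56.9 with ENL KO. The DOT1L KO libraries overlapped the controls and the ENL KO libraries lay below both groups. The log2 change in the DOT1L KO was -0.03 (95% interval -0.19 to 0.13, edgeR adjusted p = 0.779), and its sign differed between scalings. In the ENL KO JAK2 fell 1.24-fold (log2 change -0.31, SE 0.076, edgeR adjusted p = 0.00471). That call was lost without the second control library (log2 change -0.26, adjusted p = 0.0671). JAK2 was lower in the HEL KD than the K562 response would give by 0.59 on the log2 scale, and this difference between the lines passed the test (-0.59, SE 0.075, edgeR adjusted p = 1.85e-06). In these bulk libraries fewer cells of a type and less RNA per cell cannot be told apart.

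**Figure D2:**
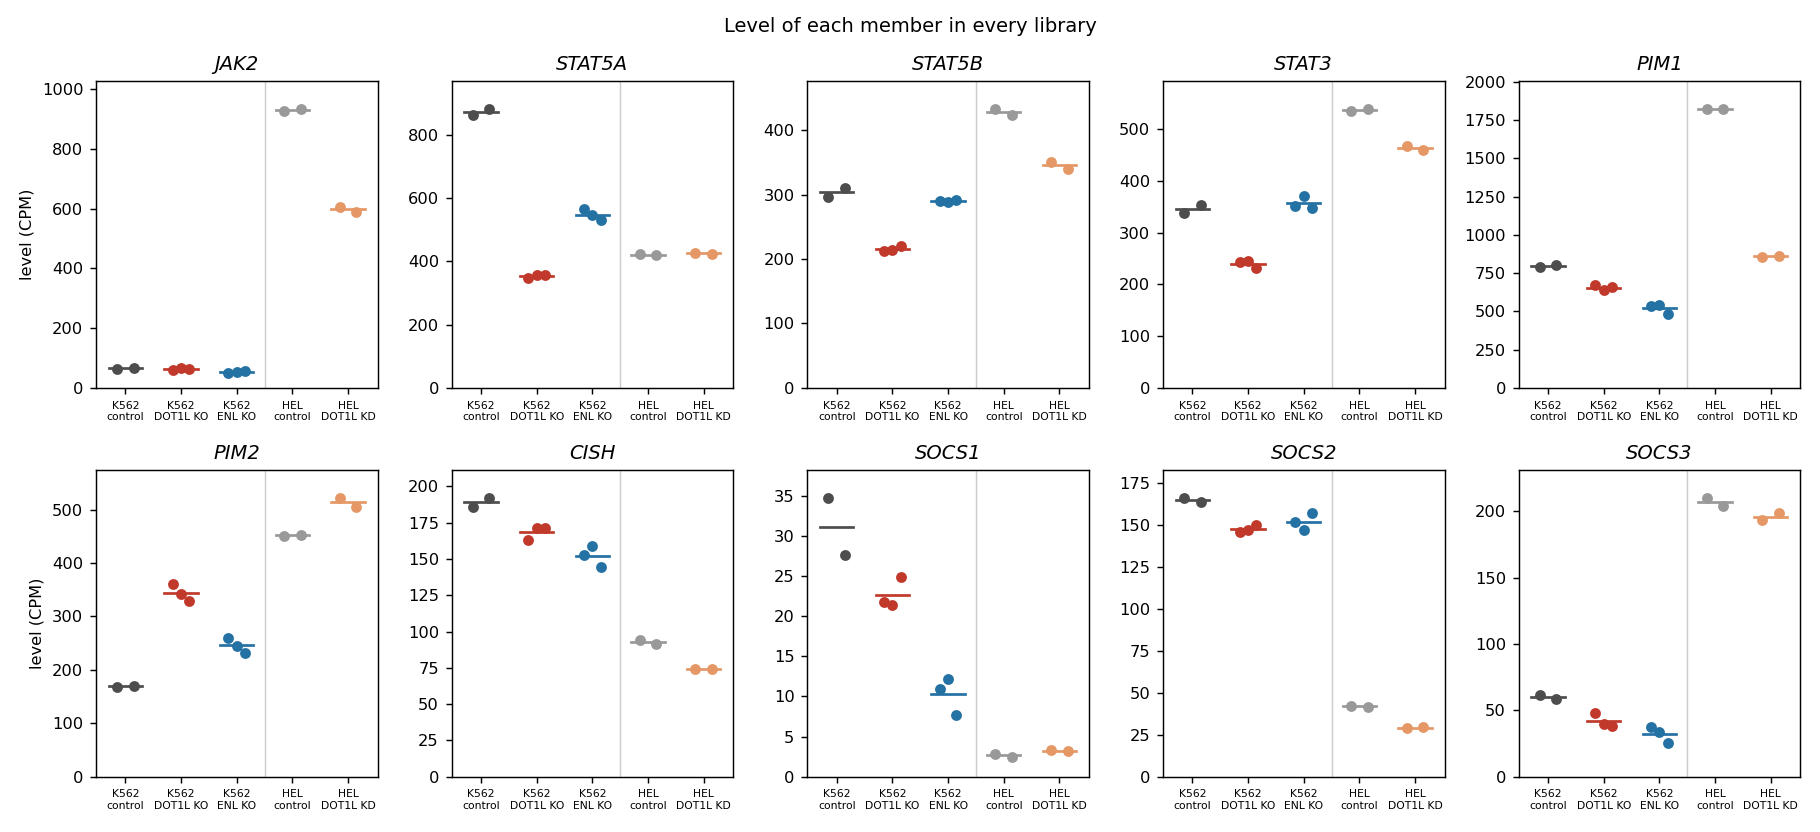
Level (CPM, axis from 0) of each of the 10 members in every library of the 5 groups, 1 point per library with a line at the group mean. STAT5A falls in both K562 knockouts and stays near 422 CPM in both HEL groups, whereas PIM1 drops in the HEL KD.

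The 3 STAT genes sit side by side on chromosome 17. STAT5B spans 42199177 to 42276406 (minus strand), STAT5A starts 11140 bases further on and spans 42287547 to 42311942 (plus strand), and STAT3 begins 1382 bases after it and spans 42313325 to 42388495 (minus strand). No exonic base of a member is shared with another listed gene. STAT5A and STAT5B encode closely similar proteins from similar coding sequences, so reads can have been split between them or dropped in counting, and their levels are uncertain to that extent.

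STAT5A gave the largest decrease of any member in the K562 DOT1L KO. It stood at 863 and 882 CPM in the control libraries, 346, 358 and 356 with DOT1L KO and 565, 545 and 531 with ENL KO. The 3 groups did not overlap, with the ENL KO between the others. STAT5A fell 2.47-fold in the DOT1L KO (log2 change -1.31, SE 0.049, edgeR adjusted p = 1.82e-10). It also fell in the ENL KO (log2 change -0.67, SE 0.049, edgeR adjusted p = 1.46e-07). The DOT1L KO was lower than the ENL KO by 0.63 on the log2 scale (-0.63, SE 0.045, edgeR adjusted p = 3.76e-08). HEL showed no such decrease, with 422 and 421 CPM in the control libraries and 427 and 424 after KD. The KD libraries lay just above the controls and the log2 change was 0.01 (95% interval -0.05 to 0.07, edgeR adjusted p = 0.745). Under upper-quartile scaling it was 0.09 (adjusted p = 0.0156), a scaling that put the median of all genes at the same 0.09. The responses of the lines differed by 1.34 on the log2 scale (SE 0.064, edgeR adjusted p = 6.61e-13), more than for any other member.

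STAT5B, which encodes the close relative of STAT5A, moved less. Its K562 levels were 297 and 311 CPM in the control libraries, 213, 214 and 220 with DOT1L KO and 291, 289 and 292 with ENL KO. The DOT1L KO libraries were the low ones, and the ENL KO libraries lay just under the lower control. STAT5B fell 1.41-fold in the DOT1L KO (log2 change -0.49, SE 0.049, edgeR adjusted p = 2.03e-06). In the ENL KO the log2 change was -0.06 (95% interval -0.17 to 0.04, edgeR adjusted p = 0.333). The knockouts differed from each other by a log2 difference of -0.43 (SE 0.045, edgeR adjusted p = 1.88e-06). In HEL STAT5B stood at 433 and 424 CPM in the controls and fell to 351 and 341 in the KD, 1.24-fold (log2 change -0.31, SE 0.031, edgeR adjusted p = 2.69e-12). The difference between the lines was 0.20 on the log2 scale (SE 0.068, edgeR adjusted p = 0.0225). It failed the test when any 1 of 4 libraries was left out: K562 control 2 (adjusted p = 0.0811), DOT1L KO 2 (0.0552), HEL control 2 (0.107) or HEL KD 1 (0.108).

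The balance of the STAT5 genes therefore shifted in each line. The ratio of STAT5A to STAT5B per kilobase of exon was 3.26 ± 0.0569 in the K562 control (n = 2), 1.86 ± 0.0316 with DOT1L KO and 2.14 ± 0.0706 with ENL KO (SD, n = 3 each). In HEL it went from 1.12 ± 0.0150 to 1.40 ± 0.0242 (n = 2 each), the opposite direction. No depleted library overlapped the controls of its line in this ratio. Their summed level was 254 CPM per kb for the K562 control, 121 for the DOT1L KO, 179 for the ENL KO, 178 for the HEL control and 163 for the KD. Within K562 the DOT1L KO thus held the least STAT5 transcript by this measure. The lines were scaled separately here and counted in different units, so their sums are not on a common scale.

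STAT3, which encodes the factor best known downstream of the interleukin 6 family, resembled STAT5B. In K562 it stood at 339 and 353 CPM in the control libraries, 244, 244 and 232 with DOT1L KO and 351, 372 and 348 with ENL KO. The ENL KO libraries overlapped the controls and the DOT1L KO libraries lay well below both. STAT3 fell 1.44-fold in the DOT1L KO (log2 change -0.53, SE 0.053, edgeR adjusted p = 2.30e-06). The ENL KO gave a log2 change of 0.05 (95% interval -0.07 to 0.16, edgeR adjusted p = 0.533). Between the knockouts the log2 difference was -0.57 (SE 0.048, edgeR adjusted p = 2.29e-07). In HEL STAT3 fell from 534 and 539 CPM to 468 and 459, 1.16-fold (log2 change -0.21, SE 0.030, edgeR adjusted p = 2.56e-08). With upper-quartile scaling the change was -0.14 (adjusted p = 0.000126). The decrease was smaller in HEL than in K562 by 0.33 on the log2 scale (SE 0.067, edgeR adjusted p = 0.000429).

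PIM1 (chromosome 6, 37170146 to 37175428, plus strand), a survival kinase gene and a known STAT5 target, fell in all 3 comparisons with a control. In HEL it stood at 1823 and 1821 CPM in the control libraries and at 856 and 865 after KD. The KD libraries lay far below the controls, and the decrease was 2.12-fold (log2 change -1.08, SE 0.027, edgeR adjusted p = 1.73e-36), the largest of any member in HEL. In K562 it stood at 790 and 801 CPM in the control libraries, 671, 637 and 657 with DOT1L KO and 538, 545 and 486 with ENL KO. Here the groups did not overlap and the ENL KO was lowest. PIM1 fell 1.22-fold in the DOT1L KO (log2 change -0.28, SE 0.057, edgeR adjusted p = 0.00100). It fell 1.52-fold in the ENL KO (log2 change -0.61, SE 0.057, edgeR adjusted p = 1.73e-06). PIM1 was thus higher in the DOT1L KO than in the ENL KO by 0.32 on the log2 scale (SE 0.051, edgeR adjusted p = 9.78e-05). The HEL response lay below the K562 response to DOT1L loss by a log2 difference of -0.78 (SE 0.064, edgeR adjusted p = 3.18e-09).

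PIM2 (chromosome X, 48913182 to 48919136, minus strand), which encodes the related kinase, was the single member that rose, and it rose in all 3 comparisons. Its K562 levels were 169 and 170 CPM in the control libraries, 361, 341 and 329 with DOT1L KO and 260, 245 and 231 with ENL KO. No libraries overlapped between these groups. PIM2 rose 2.03-fold in the DOT1L KO (log2 change 1.02, SE 0.063, edgeR adjusted p = 1.74e-08). It rose 1.45-fold in the ENL KO (log2 change 0.54, SE 0.062, edgeR adjusted p = 1.31e-05). The DOT1L KO exceeded the ENL KO by 0.48 on the log2 scale (SE 0.054, edgeR adjusted p = 4.02e-06). HEL had 451 and 453 CPM in the control libraries and 523 and 506 after KD, both above the controls. That rise was 1.14-fold (log2 change 0.18, SE 0.030, edgeR adjusted p = 6.62e-07), smaller than in K562 by a log2 difference of -0.82 (SE 0.072, edgeR adjusted p = 8.54e-09).

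Because PIM1 fell and PIM2 rose, the PIM kinase genes drew closer in every depleted group. The ratio of PIM1 to PIM2 per kilobase of exon was 3.79 ± 0.00878 in the K562 control (n = 2), 1.54 ± 0.0608 with DOT1L KO and 1.72 ± 0.0634 with ENL KO (SD, n = 3 each). In HEL it went from 3.25 ± 0.0121 to 1.35 ± 0.0418 (n = 2 each). Every depleted library had a ratio of at most 1.79, and every control library one of at least 3.24. The summed PIM level was 371 CPM per kb in the K562 control, 399 with DOT1L KO and 305 with ENL KO, and it went from 879 to 553 in HEL. The sum was thus highest in the DOT1L KO within K562 and was lower after depletion in HEL.

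**Figure D3:**
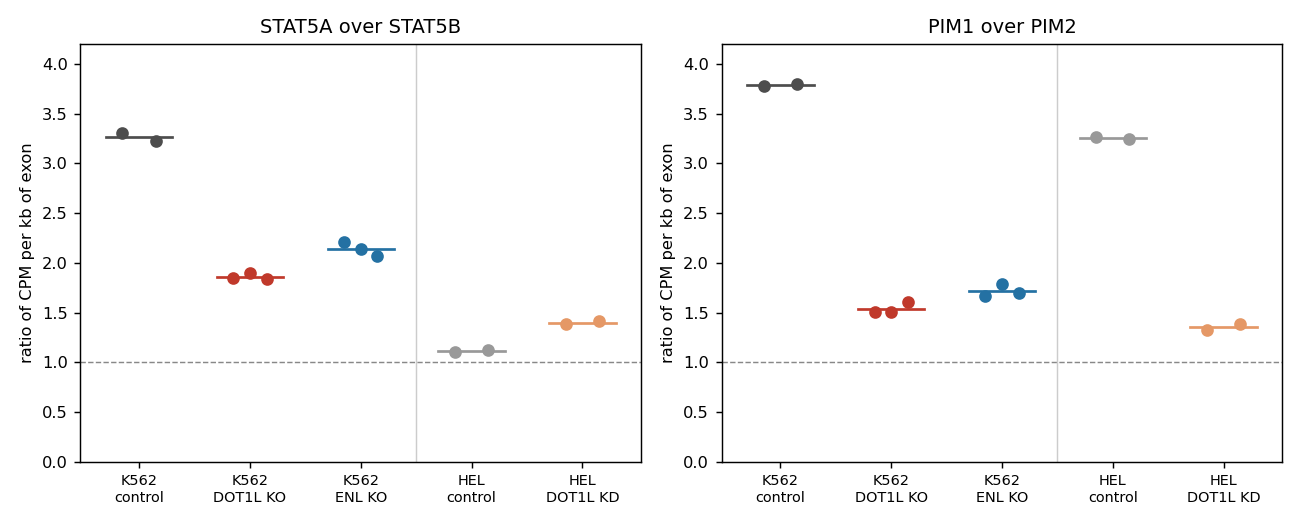
Ratio of STAT5A to STAT5B (left) and of PIM1 to PIM2 (right), each per kilobase of exon, in every library of the 5 groups, with a line at the group mean and a dashed line at 1. The PIM ratio is lower in each depleted group than in its control, and the STAT5 ratio is lower in the K562 knockouts but higher in the HEL KD.

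CISH (chromosome 3, 50606454 to 50611831, minus strand), whose product binds phosphorylated receptors and keeps STAT5 from them and whose promoter is printed above, fell modestly in all 3 comparisons. HEL had 94.0 and 91.4 CPM in the control libraries and 74.0 and 73.9 after KD. The KD libraries lay below both controls, and CISH fell 1.25-fold (log2 change -0.33, SE 0.050, edgeR adjusted p = 1.57e-07). K562 had 186 and 192 CPM in the control libraries, 163, 171 and 171 with DOT1L KO and 153, 159 and 145 with ENL KO. The groups did not overlap and were ordered control, DOT1L KO, ENL KO. CISH fell 1.24-fold in the ENL KO (log2 change -0.31, SE 0.057, edgeR adjusted p = 0.000621). The decrease in the DOT1L KO was 1.12-fold (log2 change -0.17, SE 0.057, edgeR adjusted p = 0.0249). It lost its call with library totals in place of TMM scaling (adjusted p = 0.0771) and without K562 control 1 (0.0587), control 2 (0.153) or DOT1L KO 1 (0.0881). The knockouts differed by 0.15 on the log2 scale (SE 0.051, edgeR adjusted p = 0.0250), a call lost without a filter on low counts (0.0818) and without DOT1L KO 2 (0.0676), DOT1L KO 3 (0.0661) or ENL KO 3 (0.0833). For CISH the response of the lines to DOT1L loss differed by -0.14 on the log2 scale (95% interval -0.30 to 0.02, edgeR adjusted p = 0.160), which did not pass the test.

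SOCS1 (chromosome 16, 11254417 to 11256182, minus strand), which encodes a direct inhibitor of JAK kinase activity, gave the largest decrease of any member in the ENL KO. In K562 it stood at 34.8 and 27.6 CPM in the control libraries, 21.8, 21.4 and 24.9 with DOT1L KO and 10.9, 12.2 and 7.75 with ENL KO. The groups did not overlap. In CPM the control libraries were the most widely spread, with an SD of 5.10 on a mean of 31.2. Relative to the mean the ENL KO libraries were, with an SD of 2.28 on a mean of 10.3. SOCS1 fell 3.00-fold in the ENL KO (log2 change -1.59, SE 0.15, edgeR adjusted p = 1.77e-06). The decrease in the DOT1L KO was 1.38-fold (log2 change -0.46, SE 0.14, edgeR adjusted p = 0.0127). It was -0.29 without the first control library and then failed the test (adjusted p = 0.198). The DOT1L KO exceeded the ENL KO by 1.12 on the log2 scale (SE 0.14, edgeR adjusted p = 1.05e-05). HEL had 36 and 31 counts (2.88 and 2.46 CPM) in the controls and 41 and 40 counts (3.26 and 3.25 CPM) in the KD. The KD libraries lay above the controls, but at these low counts the log2 change of 0.29 did not pass the test (95% interval -0.21 to 0.78, edgeR adjusted p = 0.333). The difference between the lines was 0.77 on the log2 scale (SE 0.28, edgeR adjusted p = 0.0335). It failed the test when K562 control 1 (adjusted p = 0.0717), DOT1L KO 2 (0.0646), HEL control 1 (0.0522), HEL control 2 (0.144), HEL KD 1 (0.0983) or HEL KD 2 (0.0947) was left out.

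SOCS2 (chromosome 12, 93569822 to 93576745, plus strand), an inhibitor gene best known for restraining growth hormone signalling, changed most in HEL. It stood at 42.3 and 41.4 CPM in the HEL controls and at 28.8 and 29.6 in the KD. The KD libraries lay below both controls, and SOCS2 fell 1.43-fold (log2 change -0.52, SE 0.074, edgeR adjusted p = 4.35e-08). K562 had 166 and 164 CPM in the control libraries, 146, 147 and 150 with DOT1L KO and 152, 147 and 157 with ENL KO. Both knockouts lay below the controls and overlapped each other. The decrease in the DOT1L KO was 1.12-fold (log2 change -0.16, SE 0.053, edgeR adjusted p = 0.0209). It lost its call with library totals (adjusted p = 0.0905) and without K562 control 1 (0.110), control 2 (0.0716), DOT1L KO 1 (0.0638) or DOT1L KO 2 (0.0519). The ENL KO gave a log2 change of -0.12 (95% interval -0.23 to -0.01, edgeR adjusted p = 0.0893). That change passed the test under upper-quartile scaling (adjusted p = 0.0422). Between the knockouts the log2 difference was -0.04 (95% interval -0.14 to 0.06, edgeR adjusted p = 0.473), with a sign that depended on the scaling. The HEL response was lower than that of K562 by a log2 difference of -0.34 (SE 0.087, edgeR adjusted p = 0.00369).

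SOCS3 (chromosome 17, 78356777 to 78360079, minus strand), which encodes the inhibitor that acts on JAKs bound to interleukin 6 family receptors, fell in both K562 knockouts. It stood at 61.8 and 58.7 CPM in the control libraries, 48.3, 40.0 and 38.5 with DOT1L KO and 37.3, 33.4 and 25.6 with ENL KO. The groups did not overlap, although the highest ENL KO library lay just under the lowest DOT1L KO library. SOCS3 fell 1.87-fold in the ENL KO (log2 change -0.90, SE 0.13, edgeR adjusted p = 7.88e-05). It fell 1.43-fold in the DOT1L KO (log2 change -0.51, SE 0.12, edgeR adjusted p = 0.00372). The DOT1L KO was higher than the ENL KO by 0.39 on the log2 scale (SE 0.12, edgeR adjusted p = 0.0114), and by 0.26 without ENL KO 3 (adjusted p = 0.0379). HEL had 210 and 204 CPM in the control libraries and 193 and 199 after KD. The KD libraries were lower, but the log2 change of -0.08 did not pass the test (95% interval -0.15 to -0.01, edgeR adjusted p = 0.0585). Without the second HEL control the change was -0.11 and passed (adjusted p = 0.0286). The lines differed by 0.45 on the log2 scale (SE 0.10, edgeR adjusted p = 0.00158).

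**Figure D4:**
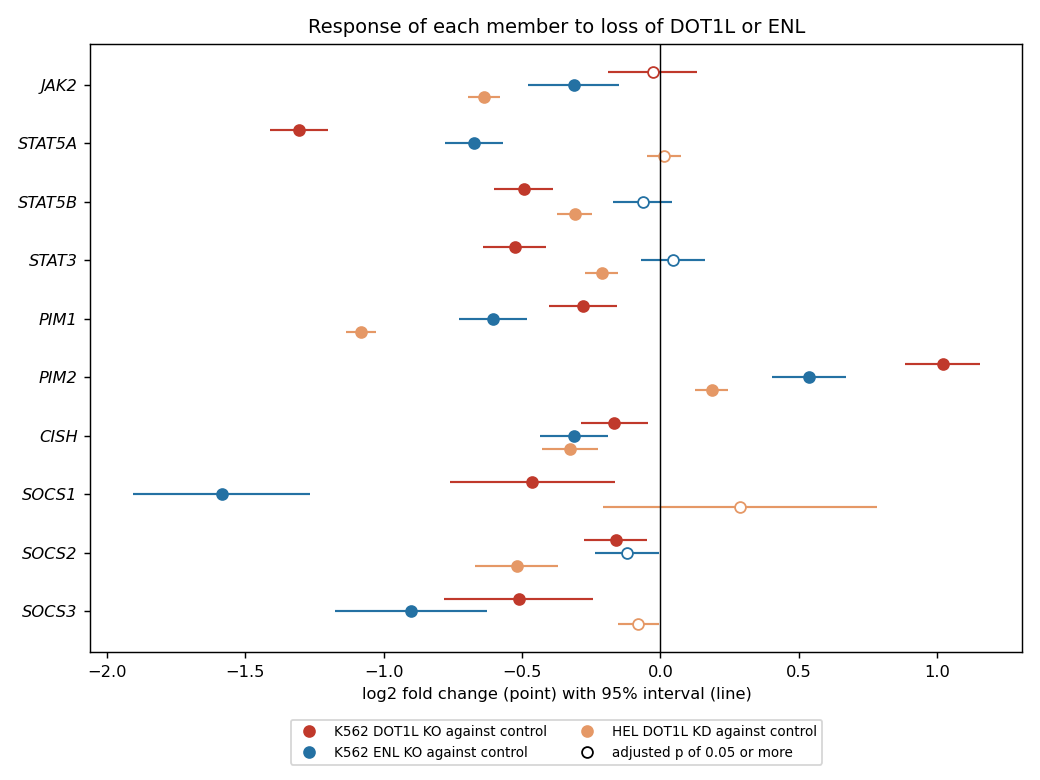
Log2 fold change of each member against the control of its line with its 95% interval, for the K562 DOT1L KO (red), the K562 ENL KO (blue) and the HEL DOT1L KD (orange). Open points had an adjusted p of 0.05 or more. PIM2 is right of 0 in each comparison, and every other filled point is left of 0.

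Across the set, 9 of 10 members passed the test in the K562 DOT1L KO, 8 lower and 1 higher, where 51.1% of all genes tested passed, 24.2% as lower and 26.9% as higher. Their median log2 change was -0.37 beside 0.01 over all genes. In the ENL KO 7 members passed, 6 lower and 1 higher, where 41% of all genes passed, 22.2% as lower and 18.8% as higher. That median was -0.31 beside 0.0028 over all genes. In the HEL KD 7 members passed, again 6 lower and 1 higher, where 55% of all genes passed, 28% as lower and 27% as higher. The HEL median was -0.26 beside 0.01. The higher member was PIM2 each time. The members were chosen with earlier results of these data known, and the shares over all genes were not matched to their expression level. The counts are therefore a description.

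The knockouts differed from each other in 9 members, beside 60.2% of all genes. The STAT genes were the 3 lower ones in the DOT1L KO, beside 28.3% of all genes, and JAK2, both PIM genes, CISH, SOCS1 and SOCS3 the 6 higher ones, beside 31.8%. The lines differed in their response to DOT1L loss in 9 members, beside 38.9% of all genes. The HEL response was the higher for the 5 genes STAT5A, STAT5B, STAT3, SOCS1 and SOCS3, beside 19.8% of all genes, and the lower for the 4 genes JAK2, PIM1, PIM2 and SOCS2, beside 19.1%. In that comparison the lines also differ in the means of depletion and in the unit counted.

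Libraries did not overlap between the DOT1L KO and its control in 9 members and in 68.1% of all genes, and between the ENL KO and the same control in 9 members and 59.6% of all genes. Between the knockouts this held for 9 members and 63.3% of all genes. Between the HEL KD and its control it held for all 10 members and 75.9% of all genes. A change of at least 1 on the log2 scale beside the adjusted p was met by STAT5A and PIM2 after DOT1L KO (15.8% of all genes), by SOCS1 after ENL KO (11%) and by PIM1 in the HEL KD (5.84%). It was met by SOCS1 between the knockouts (19.2%) and by STAT5A for the difference between the lines (12.7%). Between the control groups 6 members met it, 4 higher and 2 lower in HEL, beside 57.2% of all genes.

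PIM1, PIM2 and CISH were the 3 members that passed in both knockouts and in the KD, as were 1794 of 11644 genes tested in both tables (15.4%). PIM1 and CISH were lower each time, as were 3.12% of genes, and PIM2 was higher each time, as were 3.11%. The K562 knockouts share their control libraries. Over the 3 log2 changes the genes nearest to PIM1 among 8842 compared were WARS, at a distance of 0.183, and MINDY2, at 0.185. Those nearest to PIM2 were KAT2B, which encodes a histone acetyltransferase, at 0.128, and E2F1, a cell cycle transcription factor gene, at 0.135. CISH had DNAJB14 at 0.0498 and GOLPH3 at 0.0513. The distance is Euclidean on the log2 scale.

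Within K562 the inhibitor genes in sum had their highest level in the control. The summed level of CISH, SOCS1, SOCS2 and SOCS3 was 173 ± 3.40 CPM per kb in the K562 control (n = 2), 146 ± 1.94 with DOT1L KO and 126 ± 5.50 with ENL KO (SD, n = 3 each). In HEL it was 129 ± 2.89 in the control and 114 ± 1.48 in the KD (n = 2 each). The libraries of each depleted group lay below those of its control. CISH was the largest part of the sum in K562, and SOCS3 the largest in HEL.

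Beyond the members, 61 further genes of the pathway were counted by role. In the K562 DOT1L KO 29 of 54 tested passed, 13 higher and 16 lower, with a median log2 change of 0.03. The share was near the 51.1% of all genes, and the balance turned to 17 higher and 14 lower with library totals and to 16 and 15 with upper-quartile scaling. Of 16 receptor genes tested there 6 were higher and 3 lower, beside 26.9% and 24.2% of all genes. The higher genes include the receptor genes CSF2RB and IL7R and the transcription factor gene STAT4. These had at most 2 counts in any K562 control or ENL KO library. They passed the filter on low counts only through the DOT1L KO libraries and could only come out higher, so these counts are no measure of direction. In the ENL KO 25 of 54 passed, beside 41% of all genes, and the median was -0.11. They were 8 higher and 17 lower, beside 18.8% and 22.2% of all genes. Of the 10 target genes tested there 6 were lower and 1 was higher. In the HEL KD 36 of 53 passed, beside 55% of all genes, and the median was -0.13. They were 11 higher and 25 lower, beside 27% and 28% of all genes, but 17 and 18 with upper-quartile scaling. All 10 target genes tested in HEL passed, 3 higher and 7 lower, beside the same 55% of all genes. Between the knockouts 40 of 54 passed, beside 60.2% of all genes, and 32 of 57 for the difference between the lines, beside 38.9%. Between the control groups 54 of 57 passed, 33 higher and 21 lower in HEL, beside 85.6% of all genes.

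In the K562 DOT1L KO 8 of 54 further pathway genes passed and changed at least 2-fold, beside 15.8% of all genes. Of these 7 were higher and 1 was lower. CSF2RB, IL7R and STAT4 are among the higher ones and could only come out higher, as given above. The split is therefore no measure of direction, and no share of all genes by direction was counted at this cutoff. The ENL KO gave 4 of 54, all lower, beside 11%. The HEL KD gave 2 of 53, both lower, beside 5.84%. Genes are named below where they also had 5 CPM or more in the higher group, a rule without a share over all genes here. The K562 DOT1L KO had 4 such genes, all higher. SOCS6 lay just short of a 2-fold decrease there (log2 change -0.995, edgeR adjusted p = 1.67e-05). CSF3R, the receptor gene for granulocyte colony-stimulating factor, went from 1.07 and 1.09 CPM to 10.1, 9.32 and 9.89 (log2 change 3.17, SE 0.20, edgeR adjusted p = 2.00e-08), all KO libraries far above the controls. PTPRC, which encodes the phosphatase CD45, went from 17.0 and 20.1 CPM to 47.3, 57.0 and 53.0 (log2 change 1.50). IRF1, an interferon-response factor gene, rose by a log2 change of 1.36, and IL6ST, which encodes the shared receptor chain gp130, by 1.08. These increases accompany the higher summed level of monocyte and granulocyte markers in the same libraries, where 1 of the 4 markers reached 1 CPM. That marker sum was 19.8 to 20.7 CPM in the ENL KO, below the 33.7 to 36.5 of the control. PTPRC and IL6ST nevertheless rose there too (log2 changes 0.85 and 0.61, edgeR adjusted p = 1.69e-05 and 0.0015). IRF1 and CSF3R fell there (log2 changes -0.56 and -4.20, edgeR adjusted p = 0.00117 and 2.33e-05). CSF3R had at most 2 counts in any ENL KO library. The part of the marker level in the increases of the DOT1L KO was not tested.

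In the ENL KO 3 genes met the same rule, all lower. LIFR, the leukaemia inhibitory factor receptor gene, went from 106 and 112 CPM to 19.5, 23.6 and 24.4 (log2 change -2.28, SE 0.087, edgeR adjusted p = 3.15e-10). OSMR, the oncostatin M receptor gene, fell by 1.16 on the log2 scale and CCND2, which encodes cyclin D2, by 1.00. LIFR and OSMR both encode partners of gp130. In the HEL KD 2 receptor genes met the rule. CSF2RB, which encodes the shared chain of the receptors for interleukin 3 and GM-CSF, went from 289 and 274 CPM to 122 and 121 (log2 change -1.21, SE 0.039, edgeR adjusted p = 4.94e-32). IL4R, the interleukin 4 receptor gene, went from 50.3 and 49.9 CPM to 23.4 and 24.2 (log2 change -1.07).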

How the data were processed

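RNA-seq of K562 (8 libraries used) and HEL (4) was analysed, and the other assays of the series were not analysed here. The authors deposited whole-number counts per gene, fragments for K562 and reads for HEL per the file headers, with exon positions and the exonic Length of each gene, which served for values per kilobase. Per the labels' protocols the libraries were polyadenylated and strand-marked by dUTP. The submitters' processing notes name fastp 0.13.1, HISAT2 2.1.0, featureCounts 1.6.1 and the builds hg38 and hg19, without roles. Use of strand and handling of reads shared by STAT5A and STAT5B are not given in the sources used here. Positions overlapped RefSeq GRCh38.p14 for all members.

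Genes were kept with filterByExpr (minimum count 10, minimum total 15) of edgeR 4.0.16 in R 4.3.3, scaled by TMM within each table, and compared with the quasi-likelihood test (glmQLFit, glmQLFTest), all K562 groups in one fit, HEL in another and a joint fit, scaled over all its libraries, for comparisons between lines. P-values were adjusted (Benjamini-Hochberg) over all genes of a comparison, with a threshold of 0.05. Standard errors were derived from the F statistic, and intervals are at 95%. K562 control columns 2 and 3 were identical and counted once, where 3 control libraries had been planned. Intervals and standard errors rest on counts without molecular identifiers.

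Members and lists were chosen with earlier results of these data known. Named were all members, listed pathway genes past the threshold with an absolute log2 change of at least 1 against a control and 5 CPM in the higher group, and, for members that passed in both knockouts and the KD, the 2 nearest genes with at least 5 CPM in each control. SOCS6, just short of the required change, was named after its value had been seen. Alternatives were DESeq2 1.42.0, library totals, upper-quartile scaling, no filter on low counts, only the 2 groups compared, a replicate block, leaving out each library and a minimum log2 change of 1. The test was tried on simulated counts before use.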

Additional observations from a re-analysis of the deposited data

Results flagged for a closer look

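The response to DOT1L depletion differed between the lines for 9 of the 10 members by the interaction term of edgeR's quasi-likelihood test. The HEL response minus the K562 response on the log2 scale was 1.34 for STAT5A, 0.20 for STAT5B, 0.33 for STAT3, 0.77 for SOCS1 and 0.45 for SOCS3. It was -0.59 for JAK2, -0.78 for PIM1, -0.82 for PIM2 and -0.34 for SOCS2. Of all genes tested 38.9% passed the same test. HEL was depleted by knockdown and counted in reads, K562 by knockout and counted in fragments, and these cannot be told apart from the line.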

How the results depend on the processing

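The precision of every K562 comparison with a control rests on 2 control libraries, and of SOCS1 in HEL on 31 to 41 counts per library. Leaving out 1 library at a time, the lone library of a group being assumed to vary like the others, the members past the threshold numbered 6 to 9 in the K562 DOT1L KO, 6 to 7 in the ENL KO, 8 to 9 between the knockouts, 7 to 8 in the HEL KD, 7 to 9 for the difference between the lines and 10 to 10 between the controls. The pathway genes numbered 24 to 33, 20 to 26, 36 to 39, 33 to 36, 28 to 34 and 53 to 54 in the same order. With a minimum absolute log2 change of 1 the members numbered 2, 1, 1, 1, 1 and 6 in that order, and the pathway genes 8, 4, 8, 2 and 9 in the first 5, counts that are lower by construction. The log2 change of JAK2 in the DOT1L KO became 0.017 with library totals and ran from -0.082 (without K562 control 1) to 0.021 (without K562 control 2) when 1 library was left out, with 0.0080 without DOT1L KO 1, and that of SOCS2 between the knockouts became 0.011 with library totals and 0.00015 with upper-quartile scaling; none of these passed the test, and the cause was not tested. The other changed calls are given beside each member, and that under the block below. Of 460 member values from leaving out a library 435 kept their direction and side of the threshold, and of 330 from the other settings 321 did. In HEL DESeq2 called 4561 genes in all where edgeR called 6951, and upper-quartile scaling moved the share of higher calls from 49.1% to 61.4%, while the 7 member calls of the main setting were made under both.

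Replicate numbers of the labels were tried as a block. Same-numbered libraries had correlations of their deviations of 0.22, 0.0531 and 0.0948 between the K562 knockouts, 0.144 and 0.101 between control and DOT1L KO, 0.15 and 0.0603 between control and ENL KO, and 0.000442 in HEL. All were positive, but deviations were taken from each group's mean, so these values are not independent of each other. In HEL both same-numbered pairs give the same value by construction. The 3 pairs of knockouts were not all over 0.1, a cutoff with no basis given here. The labels give no shared origin, so the numbers were not taken to pair the samples. Among the ENL KO libraries DOT1L KO 2 correlated best with number 3 (0.0709), not with its own number. With the replicate block 9, 8, 9 and 7 members passed in the DOT1L KO, the ENL KO, between the knockouts and in the HEL KD. The added call was SOCS2 in the ENL KO (log2 change -0.14, edgeR adjusted p = 0.0144). Pathway genes past the threshold went from 29 to 37 in the DOT1L KO and from 25 to 31 in the ENL KO, and all genes from 7305 to 8340 and from 5863 to 7021.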

Other observations

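BCR and ABL1, the partner genes of the fusion kinase of K562, were examined after their values had been seen. BCR stood at 409.8 and 392.3 CPM in the K562 controls and at 54.2 and 53.5 in the HEL controls, and ABL1 at 613 and 648 against 63.6 and 65.3. Both were lower in HEL, by log2 differences of -2.83 for BCR and -3.22 for ABL1 in the joint fit. Reads of the fusion transcript can be counted to either gene, so these are not levels of the fusion itself. After the HEL KD BCR rose to 90.1 and 86.6 CPM (log2 change 0.71, SE 0.054, edgeR adjusted p = 1.13e-16), while ABL1 fell to 54.4 and 54.2 (log2 change -0.25, SE 0.057, edgeR adjusted p = 0.000229). In the K562 DOT1L KO neither passed the test, with log2 changes of -0.13 for BCR (95% interval -0.26 to 0.0027, edgeR adjusted p = 0.0950) and -0.05 for ABL1 (95% interval -0.16 to 0.06, edgeR adjusted p = 0.431). In the ENL KO both fell, BCR to 339, 348 and 305 CPM (log2 change -0.28, SE 0.061, edgeR adjusted p = 0.00242) and ABL1 to 560, 587 and 561 (log2 change -0.15, SE 0.051, edgeR adjusted p = 0.0342).

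The JAK inhibitor genes SOCS3 and SOCS1 were present in different proportion in each line. The ratio of SOCS3 to SOCS1 per kilobase of exon was 0.789 and 0.944 in the K562 controls and 32.5 and 36.8 in the HEL controls. It was 0.986, 0.830 and 0.688 with DOT1L KO, overlapping the controls, and 1.52, 1.22 and 1.47 with ENL KO, above every control. After the HEL KD it was 26.3 and 27.1, below both controls, with SOCS1 resting on 31 to 41 counts per library.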
